A study of Mus musculus with 19 samples.

Results

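The 10 genes described here are the glucose transporter Slc2a1 and 9 enzymes of glycolysis, Hk1, Hk2, Pfkp, Pfkfb3, Aldoa, Pgk1, Eno1, Pkm and Ldha. They were taken by symbol from a table of 20408 genes and were found in 11 rows, since Aldoa is listed under 2 Ensembl genes. Of these rows, 10 passed the filter on low values, 1 for each symbol. The second Aldoa row (ENSMUSG00000114515.2, chromosome 7, 126800790 to 126809108) held between 0 and 9.48 normalized counts per mouse and was not tested.

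RNA of the suprarenal abdominal aorta (SRA) was sequenced from 19 male mice that had been infused by osmotic pump for 24 h. All mice were ApoE-/-, on a C57BL/6J background and fed chow, carried the SMA-CreERT2 transgene and received tamoxifen on 5 days from 8 weeks of age. In IKKβ-/- mice both alleles of the kinase gene Ikbkb were floxed (5 mice with Ang II, 4 with saline), and IKKβ+/+ mice were littermates without the floxed alleles (5 with Ang II, 5 with saline). The labels give the Ang II dose as 500 to 1000 ng/min/kg, the methods as 1000, and saline was the control infusion. The Cre is driven by the Acta2 promoter, so that recombination is directed to smooth muscle, while the whole wall was sequenced, with endothelial, adventitial and blood-derived cells in which the gene is intact.

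Glycolysis splits glucose into pyruvate in the cytosol and yields ATP without oxygen. Slc2a1 (GLUT1) carries glucose into the cell, hexokinases trap it as glucose 6-phosphate, phosphofructokinase commits it to the pathway, and the lower enzymes make pyruvate, which lactate dehydrogenase can turn into lactate. In vascular smooth muscle a large part of the glucose taken up leaves as lactate even when oxygen is plentiful, and several of these genes are textbook targets of the transcription factors HIF-1 and MYC.

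The depth ran from 11382573 to 19906694 reads on genes. Ikbkb mRNA, the targeted gene, stood at 594 to 791 normalized counts in the 10 IKKβ+/+ mice and at 430.2 to 672 in the 9 IKKβ-/- mice, so the groups overlapped and the mean was lower in the latter (log2 fold change −0.40 averaged over treatments, limma adjusted p = 0.0232). The summed level of 7 smooth muscle markers was between 305180 and 634960 normalized counts in all 19 mice, the highest of any marker list. Transcripts of mitochondrially encoded genes took 5.99% to 9.07% of reads in saline-infused and 10.1% to 14.1% in Ang II-treated IKKβ+/+ mice, without overlap. In IKKβ-/- mice they took 8.89% to 38.7% with saline and 7.88% to 37.2% with Ang II. A difference in level in such tissue may come from more or fewer cells of a type or from more or less RNA per cell, which cannot be told apart here.

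Levels between genes were compared only in saline-infused IKKβ+/+ mice, as normalized counts per 1000 distinct windows of 84 bases. The windows of a gene were pooled over all its protein-coding transcripts, and those found in another gene were left out. Their number is not the length of 1 transcript and grows with the transcripts annotated (Slc2a1 has 3664 windows and 3506 exon bases). The order of genes below therefore depends in part on the annotation. On this scale Aldoa, which cleaves fructose 1,6-bisphosphate, had the highest level of the 10 genes (2037 ± 215, SD, n = 5). Pkm, the pyruvate kinase of most adult tissues, followed with 1231 ± 83.1 and did not overlap with Aldoa. Ldha, which converts pyruvate to lactate, stood at 738 ± 89.8. The levels of Pfkp (437 ± 39.5) and Eno1 (407 ± 53.5) overlapped. Pgk1 came next with 266 ± 61.1 and overlapped with Eno1. Below it came Hk1 (163 ± 7.16), Pfkfb3 (144 ± 33.5) and Slc2a1 (125 ± 12.9), where Pfkfb3 overlapped with both neighbours, and Hk2 was the lowest (62.0 ± 10.6), below every value of Slc2a1. The counts of Pgk1 and Eno1 are uncertain, because 67.3% and 42.4% of their windows also occur in transcripts of other genes, mostly pseudogenes, from which reads could have been lost or gained. For Pkm the share was 11.1%, for Ldha 1.91%, and for Slc2a1, Hk1, Hk2, Pfkp and Pfkfb3 it was 0.

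**Figure D1:**
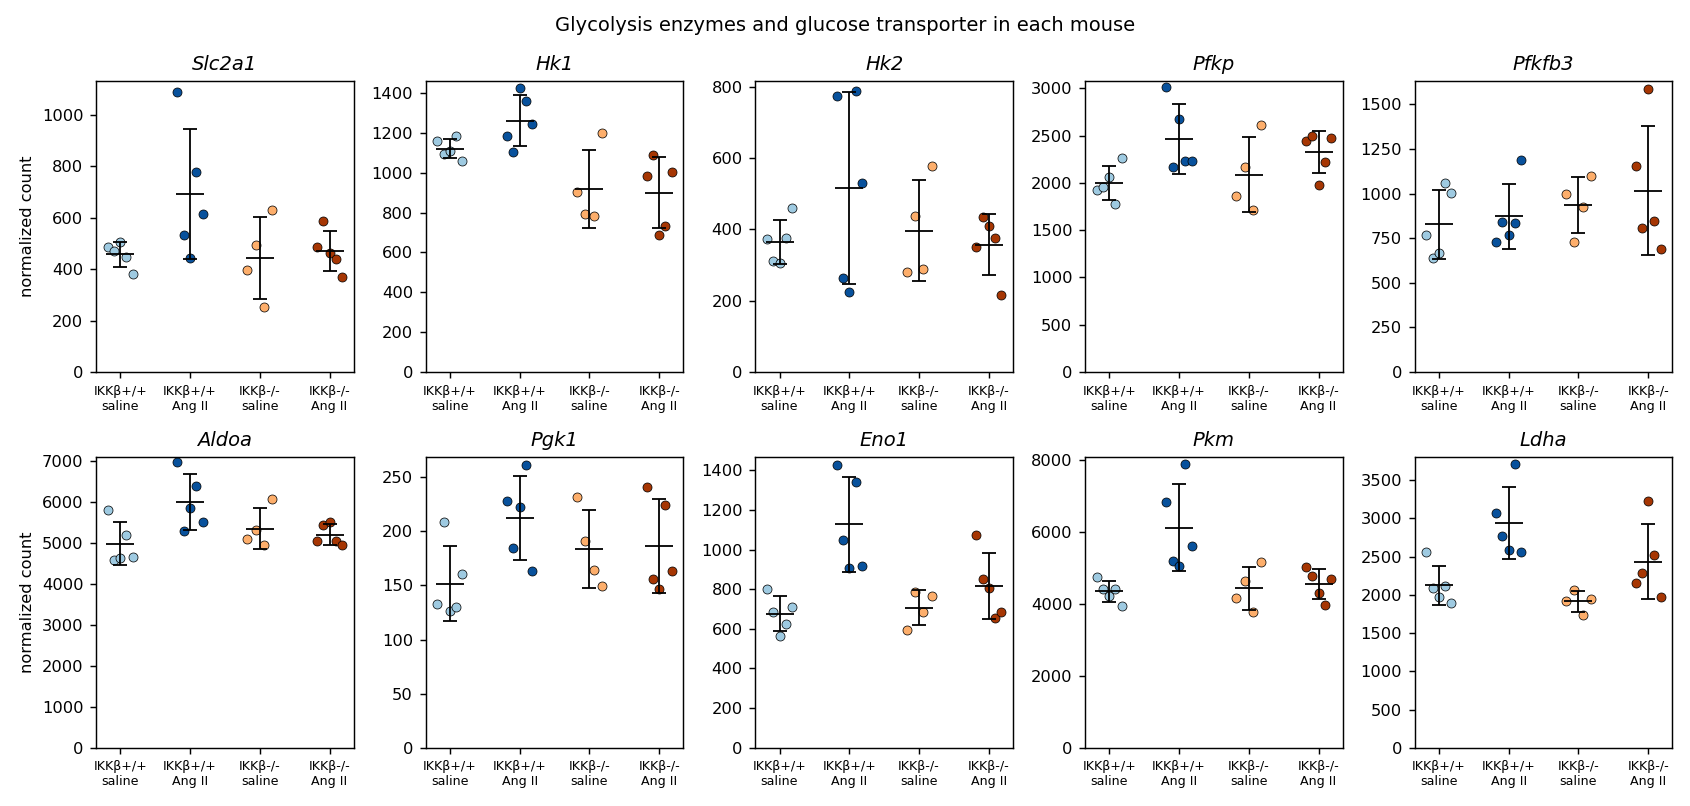
Normalized count (vertical axes, from 0) of the 10 genes in each of the 19 mice by group, with mean (long bar) and SD (whiskers). In Ang II-treated IKKβ+/+ mice Eno1, Pkm and Ldha lie above every saline-infused IKKβ+/+ mouse, whereas in IKKβ-/- mice the treated and saline-infused mice overlap for all 10 genes.

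The first comparison asked how the genes of the pathway responded to 24 h of Ang II when IKKβ was intact. In IKKβ+/+ mice the fitted mean was higher with Ang II for all 10 genes, and Eno1, Pkm and Ldha, which act at the lower end of the pathway, rose. A fold change above 1.2 with a limma adjusted p under 0.1 was required. It was met by 3 of the 10, and over all 14845 genes tested 4.33% passed upwards. The median log2 fold change was 0.40 over the 10 genes and 0.0056 over all genes tested.

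Eno1 (ENSMUSG00000063524.13, GRCm38 chromosome 4, 150236721 to 150248879) encodes the enolase that makes phosphoenolpyruvate. Its normalized counts were 799.9, 685, 565, 624 and 708 in saline-infused and 1426, 1050.3, 908, 1339 and 916 in Ang II-treated IKKβ+/+ mice. Every treated mouse lay above every saline-infused mouse, with 2 treated mice (X2350 and X2358) far above the other 3. The mean was 1.65-fold higher (log2 fold change 0.72 ± 0.15, SE, limma adjusted p = 0.0122).

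Pkm (ENSMUSG00000032294.17, chromosome 9, 59656368 to 59679375) encodes pyruvate kinase, which forms pyruvate and ATP. Its counts were 4753, 4406, 4231, 4417 and 3949 with saline and 6839, 5212, 5047, 7896 and 5617 with Ang II. The groups did not overlap, and X2358 and X2350 were again the highest. The mean was 1.39-fold higher (log2 fold change 0.47 ± 0.12, limma adjusted p = 0.0338). The table holds 1 value for the gene, so the M1 and M2 splice forms cannot be told apart.

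Ldha (ENSMUSG00000063229.15, chromosome 7, 46841475 to 46855627) encodes the lactate dehydrogenase subunit that favours lactate. Its counts were 2558, 2086.5, 1972, 2111 and 1892 with saline and 3067.5, 2773, 2584, 3708 and 2561.5 with Ang II. The lowest treated mouse lay just above the highest saline-infused mouse. The mean was 1.38-fold higher (log2 fold change 0.46 ± 0.13, limma adjusted p = 0.0461). These were the 3 genes of the 10 whose treated mice all lay above all saline-infused mice, a pattern found in 3.95% of all genes tested.

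These 3 promoters are shown because their genes passed the test together. RefSeq gives 2 windows for Ldha, 3 for Eno1 and 2 for Pkm, and for each gene the one printed has the most matches (for Eno1 the first of 2 with as many), chosen after the search. The other Pkm window held 0 matches, the other Ldha window 1, and the other Eno1 windows 1 and 2, in the same 250 bases. The sequences are RefSeq's for GRCm38.p6, the 250 bases before an annotated start, read on the plus strand in the direction of transcription. Capitals mark ACGTG or GCGTG on either strand, the core letters of the hypoxia response element, written CACGT and CACGC where they lie on the other strand.
Ldha, chr7:46845554-46845803: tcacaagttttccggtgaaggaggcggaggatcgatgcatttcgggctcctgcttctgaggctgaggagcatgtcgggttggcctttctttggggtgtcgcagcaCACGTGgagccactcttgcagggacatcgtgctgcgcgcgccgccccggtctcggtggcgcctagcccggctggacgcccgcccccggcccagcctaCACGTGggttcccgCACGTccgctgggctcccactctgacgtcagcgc
Eno1, chr4:150236947-150237196: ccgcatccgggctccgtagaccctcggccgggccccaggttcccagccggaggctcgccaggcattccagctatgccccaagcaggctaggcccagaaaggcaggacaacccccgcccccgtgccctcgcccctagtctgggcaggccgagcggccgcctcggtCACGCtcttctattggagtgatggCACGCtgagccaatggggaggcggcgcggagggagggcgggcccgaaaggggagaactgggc
Pkm, chr9:59656977-59657226: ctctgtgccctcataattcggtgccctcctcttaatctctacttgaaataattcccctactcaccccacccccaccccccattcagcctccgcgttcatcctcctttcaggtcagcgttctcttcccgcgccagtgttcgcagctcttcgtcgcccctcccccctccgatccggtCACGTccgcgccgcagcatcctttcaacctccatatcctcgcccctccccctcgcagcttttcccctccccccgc
The Ldha window held 5 matches to ACGTG, of which 4 come from 2 copies of the palindrome CACGTG, the E-box letters, counted on both strands. The Eno1 window held 2 matches to GCGTG, and the Pkm window 1 match to ACGTG. The table holds 18 windows of 300 bases (250 before and 50 after a start) for the 10 genes, and 15 of them held ACGTG or GCGTG, as did at least 1 window of each of the 10 genes. Over all 32851 windows of the table the share was 43.8% for either motif, 19.6% for ACGTG, 32.4% for GCGTG and 7.15% for CACGTG. These shares are per window, and none was taken per gene. Some windows of Eno1 and some of Aldoa overlap each other, so the same sites count more than once. A match describes these letters only. No binding was measured.

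Slc2a1, the transporter at the entry of the pathway, did not pass. Its counts in IKKβ+/+ mice were 484, 469, 506, 446 and 383 with saline and 1090.3, 532, 445, 779.6 and 616 with Ang II. Of the 5 treated mice, 4 lay above all saline-infused mice, and the spread among the treated mice was wide (log2 fold change 0.53 ± 0.22, limma adjusted p = 0.182).

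Neither hexokinase passed. Hk2, the inducible hexokinase, had counts of 373, 311, 305, 376 and 459.9 with saline and 774, 265, 225, 787 and 531 with Ang II. The treated mice lay on both sides of the saline-infused mice, 3 above all of them and 2 below all of them (log2 fold change 0.33 ± 0.31, limma adjusted p = 0.59). Hk1, the hexokinase found in most tissues, showed a log2 fold change of 0.17 ± 0.13 (limma adjusted p = 0.515).

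Among the other enzymes, Pgk1, which makes ATP from 1,3-bisphosphoglycerate, had a log2 fold change of 0.49 ± 0.18 (limma adjusted p = 0.13). For Pfkp, the platelet form of phosphofructokinase, the value was 0.30 ± 0.12, and for Aldoa it was 0.27 ± 0.10. Neither passed (limma adjusted p = 0.162 and 0.114). Pfkfb3, which makes the activator fructose 2,6-bisphosphate, differed least (0.08 ± 0.20, limma adjusted p = 0.866). In all, 7 of the 10 genes had an unadjusted p under 0.05, as had 20.3% of all genes tested.

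**Figure D2:**
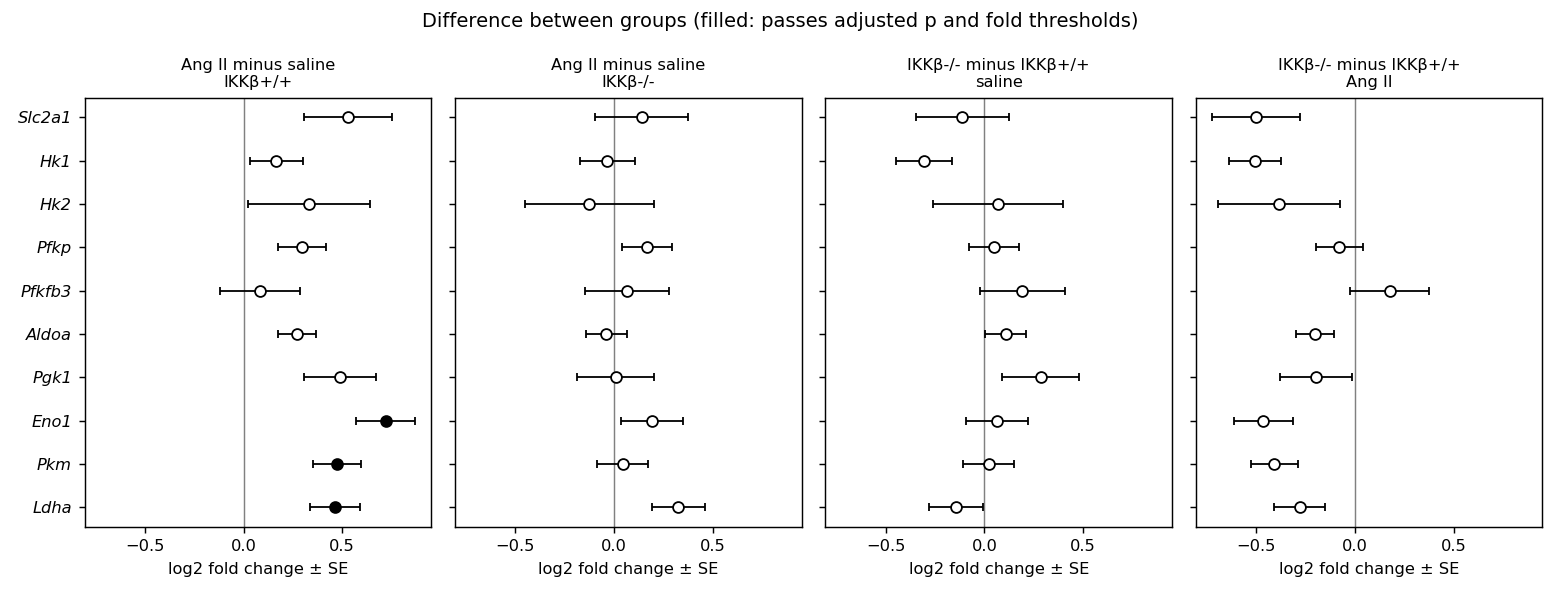
Fitted log2 fold change with its SE (horizontal axes) of the 10 genes in 4 comparisons, with filled points for genes that passed. In IKKβ+/+ mice all 10 points lie right of 0 and 3 are filled, and in the other 3 comparisons none is filled.

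The rise in IKKβ+/+ mice rested in part on mice X2350 and X2358, which between them held the highest value of all 19 mice for 8 of the 10 genes. Without X2350, 1 gene passed, and without X2358 also 1, Eno1 in each case. Over all genes the number that passed upwards went from 643 to 210 and 215 in these fits, and to 16 without both mice. Without both, 0 of the 10 passed in limma, although the 3 log2 fold changes stayed positive (Eno1 0.51, Pkm 0.28, Ldha 0.32, adjusted p = 0.242, 0.424 and 0.464), and that of Hk2 turned to −0.19. Over all alternatives the adjusted p of Eno1 ran from 0.000391 to 0.242, that of Pkm from 0.00331 to 0.43 and that of Ldha from 0.0138 to 0.464. Without the saline-infused mouse X2378, 2 passed, and 296 of all genes. DESeq2 on the recovered reads passed 5, adding Slc2a1 and Aldoa, and 1054 of all genes.

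Markers of several cell types moved in the same comparison. The fitted value was positive for 6 of the 7 smooth muscle markers. Their summed level was 331770 to 440380 normalized counts in saline-infused and 459770 to 634960 in Ang II-treated IKKβ+/+ mice, without overlap, and 2 of the 7 markers rose (Cnn1, log2 fold change 0.82, and Tagln, 0.66), while no defining marker was at 0. The highest sums of all 19 mice were those of X2358 and X2350. With the log2 summed level as a covariate, 0 of the 10 genes passed in this comparison (Eno1 0.49, Pkm 0.24, Ldha 0.49, limma adjusted p = 0.231, 0.43 and 0.214). This covariate took the number of all genes that passed upwards from 643 to 50. With the mitochondrial share of reads as a covariate, 7 of the 10 passed, and 1078 of all genes. This share, too, did not overlap between the groups compared. The skeletal muscle list had 5 of its 9 genes tested. Its summed level, over the 7 genes with a row, was 56.6 to 200.3 with saline and 165.6 to 491 with Ang II. Only Ckm of the 5 tested rose (log2 fold change 2.93), and the fast-muscle genes Myh1 and Tnni2 were at 0 in 9 and 4 of the 19 mice. The summed level of 5 endothelial markers was 18470 to 32586 with saline and 10523 to 20909 with Ang II, and 4 of the 5 fitted values were negative, of which none passed and 3 of the 5 had an unadjusted p under 0.05. Of 5 fibroblast markers 1 fell (Lum, −1.27), with sums of 57224 to 75508 and 22761 to 72664. Of 5 neuron and Schwann cell markers tested 1 rose (Uchl1, 0.86), and the sum over the 7 listed was 7151 in the treated mouse X2356 and 963 to 2041.5 in the other 18 mice. No endothelial or fibroblast marker was at 0 in any mouse, while Th, a marker of sympathetic neurons, was at 0 in 13 of the 19. The part of the skeletal muscle, endothelial, fibroblast and neuronal RNA in the result was not tested.

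**Figure D3:**
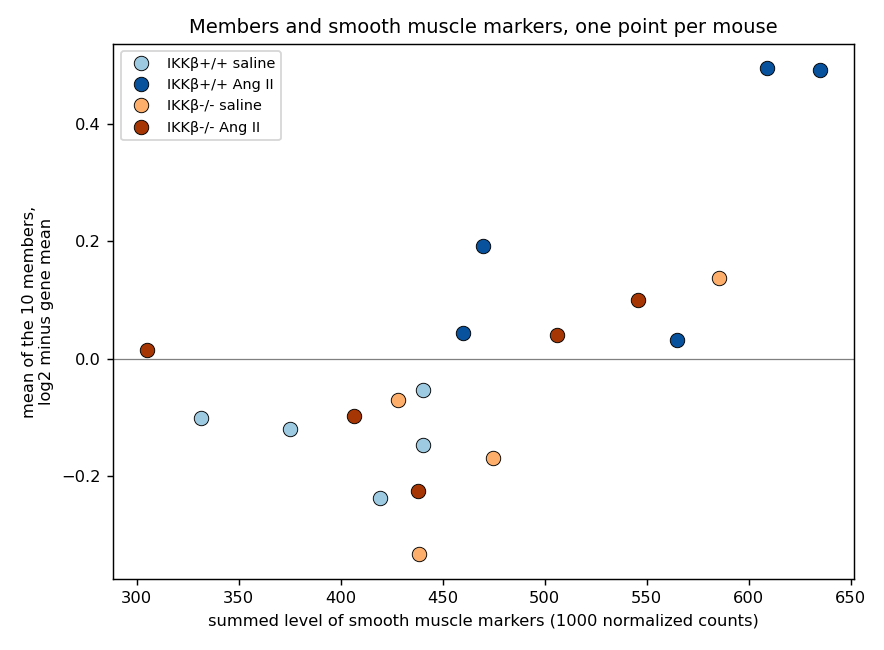
Mean of the 10 genes in each mouse (vertical axis, log2 value minus the gene's mean over the 19 mice) against the summed level of the 7 smooth muscle markers (horizontal axis), with 1 point per mouse coloured by group. Mice X2350 and X2358 are the 2 points at the upper right, with means of 0.49 in both.

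The mean over the 10 genes of the log2 value minus the gene's mean gives each mouse 1 value. It was between 0.03 and 0.49 in Ang II-treated and between −0.24 and −0.05 in saline-infused IKKβ+/+ mice. In IKKβ-/- mice it was between −0.23 and 0.10 with Ang II and between −0.33 and 0.14 with saline. In 3 of the 4 groups the mouse with the largest smooth muscle marker sum also had the highest mean, and in the Ang II-treated IKKβ+/+ group it was second by a narrow margin. Other mice did not follow this order. X2384 had the lowest sum of all 19 mice and ranked 9 of 19 by its mean, and X2378 had the lowest sum of its group and ranked 2 of 5.

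The second comparison asked whether the genes responded to Ang II when IKKβ was deleted. In IKKβ-/- mice 0 of the 10 genes passed in limma, edgeR or DESeq2, and 1 had an unadjusted p under 0.05, Ldha, against 17.8% of all genes. Over all genes tested 2.59% passed upwards. The median log2 fold change of the 10 genes was 0.06, against −0.0029 over all genes. Ldha counts were 1916, 2067, 1737 and 1943 with saline and 2161, 2283.5, 3232, 2527 and 1965 with Ang II, so 4 of the 5 treated mice lay above all saline-infused mice (log2 fold change 0.33 ± 0.14, limma adjusted p = 0.211). Eno1 counts were 593, 785, 683 and 764 with saline and 1076, 850.05, 807, 657 and 686 with Ang II (0.19 ± 0.16, limma adjusted p = 0.573). Pkm, at 4166, 4642, 3783 and 5166 with saline and 5032, 4792, 4315, 3982 and 4688 with Ang II, showed complete overlap (0.04 ± 0.13). In the same mice all 6 white adipocyte markers tested rose. The sums over the 7 listed were 1212.5 to 5098 with saline and 3460 to 45262 with Ang II. The part of the white adipocyte RNA in the values above was not tested.

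The third question was whether the response differed between genotypes, measured as the effect of Ang II without IKKβ less its effect with IKKβ. The fitted difference was negative for all 10 genes (median −0.35), from −0.53 for Eno1 to −0.02 for Pfkfb3 (whose value was positive with TMM scaling, edgeR and DESeq2), but 0 passed in limma, edgeR or DESeq2. Over all genes tested limma passed 0%, with 1654 genes at an unadjusted p under 0.05, while edgeR passed 3 genes and DESeq2 279. For 3 genes the unadjusted p of limma was under 0.05. These were Eno1 (−0.53 ± 0.22, limma adjusted p = 0.385), Pkm (−0.43 ± 0.18, limma adjusted p = 0.382) and Aldoa (−0.31 ± 0.14, limma adjusted p = 0.428). A difference between the genotypes in the response of these genes was therefore not shown. The difference was also negative for all 7 smooth muscle markers (median −0.51), of which 0 passed and 3 had an unadjusted p under 0.05. With the smooth muscle marker sum as a covariate the difference was positive for Slc2a1 (0.12), Hk1 (0.13) and Pfkp (0.05), and 0 of the 10 passed. The genotype and treatment comparisons use the same mice and are not independent of each other.

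Between genotypes at rest, with saline, 0 of the 10 genes passed in limma, edgeR or DESeq2, where 2.07% of all genes passed downwards, and 1 had an unadjusted p under 0.05, Hk1 (log2 fold change −0.31 ± 0.14, limma adjusted p = 0.238), against 19.2% of all genes. The 10 values ran from −0.31 to 0.29, with a median of 0.06. Without X2409, the saline-infused IKKβ-/- mouse with the highest value of its group for 7 of the 10 genes, Hk1 passed (−0.44, limma adjusted p = 0.059), as it did with the smooth muscle marker sum as a covariate (−0.45, limma adjusted p = 0.0591). The number of all genes that passed downwards went from 308 to 785 and 577 in these fits.

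With Ang II, 9 of the 10 fitted values were lower in IKKβ-/- than in IKKβ+/+ mice, 5 had an unadjusted p under 0.05 (14.3% of all genes), and 0 passed in limma or edgeR, where 0.108% of all genes passed downwards in limma. DESeq2 passed 2, Hk1 and Pkm, and 360 of all genes downwards, against 16 in limma. In limma 2 passed without X2356 (Pkm and Eno1), 2 without X2380 (Eno1 and Hk1) and 1 without X2383 (Hk1). Over all genes the number that passed downwards went from 16 to 371, 203 and 88 in these 3 fits. X2356 is the mouse with the high sum of neuronal markers given above. The groups did not overlap for Hk1 and Pkm, as was the case downwards for 0.882% of all genes. Hk1 (ENSMUSG00000037012.18, chromosome 10, 62268855 to 62379908) had counts of 1181, 1103, 1423, 1359 and 1241.5 in Ang II-treated IKKβ+/+ and 981, 1090.5, 689, 731 and 1004 in Ang II-treated IKKβ-/- mice. Every IKKβ-/- mouse lay below every IKKβ+/+ mouse (log2 fold change −0.51 ± 0.13, limma adjusted p = 0.162). For Pkm the value was −0.41 ± 0.12 (limma adjusted p = 0.179), for Eno1 −0.46 ± 0.15 and for Slc2a1 −0.50 ± 0.22. Pfkfb3 alone was positive (0.18 ± 0.20). All 7 smooth muscle markers had negative values in this comparison (median −0.21), of which 0 passed and 1 had an unadjusted p under 0.05. Their sums were 305180 to 545780 in Ang II-treated IKKβ-/- and 459770 to 634960 in Ang II-treated IKKβ+/+ mice. With the smooth muscle marker sum as a covariate, 0 of all genes tested passed in either direction, against 19 without it.

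Averaged over the treatments, Hk1 was the 1 gene of the 10 that passed between genotypes, and it fell. Over all genes tested 3.45% passed downwards. Its mean was lower in IKKβ-/- mice (log2 fold change −0.41 ± 0.10, limma adjusted p = 0.0343). The saline-infused mice had counts of 1157, 1093, 1108.5, 1182 and 1060 (IKKβ+/+) and 903, 790.1, 784 and 1200.3 (IKKβ-/-), so 3 of the 4 IKKβ-/- mice lay below all IKKβ+/+ mice. The mitochondrial share of reads moved with genotype, and in IKKβ+/+ mice with treatment, as given above. Without X2385 and X2406, the mice with the largest shares (37.2% and 38.7%), the log2 fold change was −0.34 (limma adjusted p = 0.146). With the share as a covariate it was −0.17 (adjusted p = 0.704). In both cases Hk1 no longer passed, and over all genes the number that passed downwards went from 512 to 50 and 21. Over all alternatives its adjusted p ran from 0.00748 to 0.704. Without X2384, Ldha passed as well (−0.27, limma adjusted p = 0.0904), in a fit where 399 of all genes passed downwards. Macrophage markers also moved with genotype. Of 6 tested, 3 fell in IKKβ-/- mice averaged over treatments (Cd68, Lyz2 and Adgre1) and the summed level was 4763 to 7937 in IKKβ+/+ and 2480.5 to 9466 in IKKβ-/- mice. Their part in the value of Hk1 was not tested.

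Averaged over the genotypes, 2 of the 10 genes rose with Ang II, Eno1 (log2 fold change 0.46 ± 0.11, limma adjusted p = 0.0129) and Ldha (0.39 ± 0.09, limma adjusted p = 0.0125), where 5.66% of all genes passed upwards. Pkm had a limma adjusted p of 0.0713 but a log2 fold change of 0.26, just short of the fold threshold of 1.2. It passed in 11 of its 30 alternatives, edgeR and DESeq2 among them, where 979 and 1157 of all genes passed upwards. Eno1 and Ldha also passed without X2350 and X2358, with the smooth muscle marker sum as a covariate, and without X2385 and X2406. In these 3 fits 531, 793 and 679 of all genes passed upwards. Without the saline-infused IKKβ-/- mouse X2409, 5 passed, adding Slc2a1, Pfkp and Pkm, and the same 5 passed with the mitochondrial share as a covariate. Over all genes 840 passed upwards, and 925 and 1120 in these fits.

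**Figure D4:**
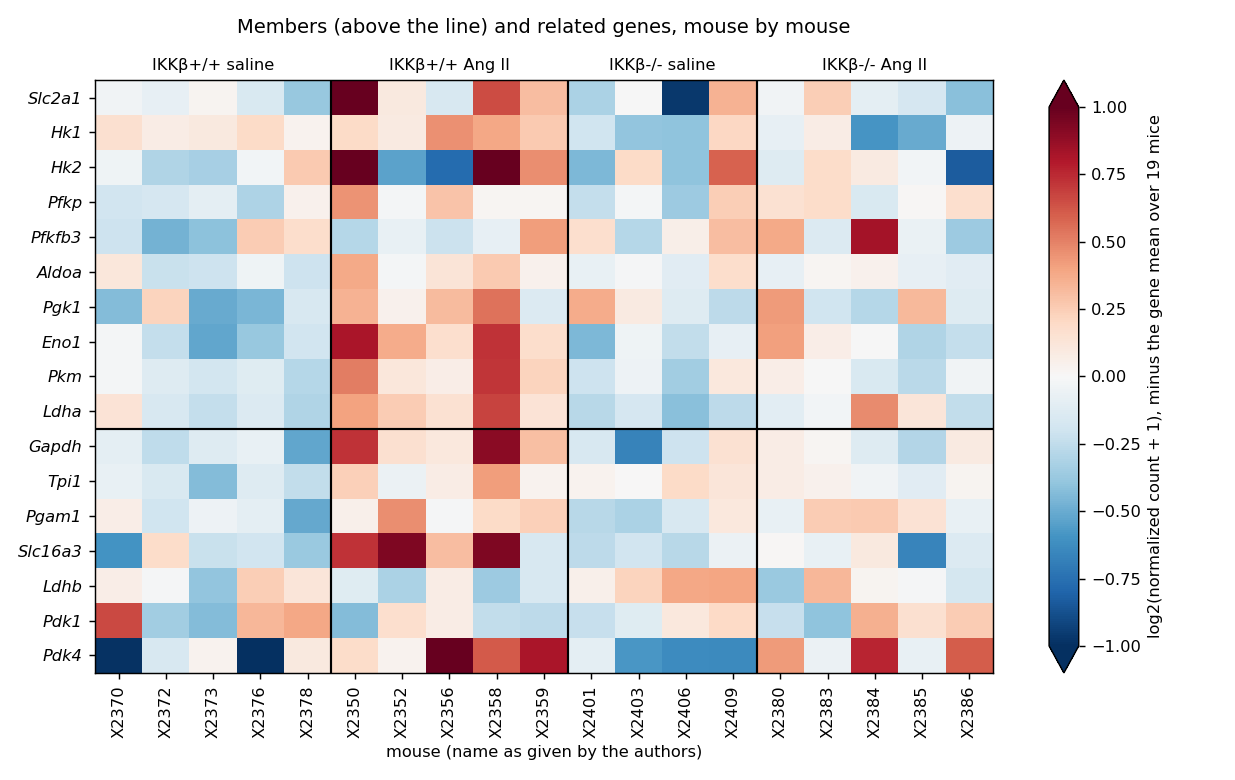
Log2(normalized count + 1) minus the gene's mean over 19 mice (colour, red above and blue below, ends of the scale at 1 and −1) for the 10 genes and 7 related genes (rows) in each mouse (columns), ordered by group. Red is densest in X2350 and X2358, and the saline-infused IKKβ-/- mouse X2406 is the lowest of 19 for 4 of the 10 genes.

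About the group means, the 45 pairs of the 10 genes varied together to differing degrees over the 19 mice. The median Pearson r was 0.28, with a range of −0.32 to 0.77, and 36 of 45 were positive. The highest were Slc2a1 with Pkm (0.77), Slc2a1 with Hk2 (0.77) and Eno1 with Pkm (0.71). Hk1 and Hk2 hardly varied together (0.07). For Hk1 and Ldha the value was −0.31, and it was 0.21 when the group means were not taken out. The points share libraries and size factors, so these values are descriptions only.

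Pairs of isozymes within a mouse do not depend on the scaling of that mouse. The log2 ratio of Ldha to Ldhb, whose product favours the reverse reaction, was 1.79 ± 0.26 (SD, n = 5) with saline and 2.44 ± 0.36 (n = 5) with Ang II in IKKβ+/+ mice, and 4 of the 5 treated mice lay above all saline-infused mice. The difference was 0.64 (two-sided exact permutation p = 0.0159, adjusted over 8 ratio tests p = 0.127). In IKKβ-/- mice it was 1.39 ± 0.22 (n = 4) with saline and 2.02 ± 0.31 (n = 5) with Ang II, again with 4 of 5 above, a difference of 0.63 (two-sided exact permutation p = 0.0317, adjusted p = 0.127). Here the smallest exact p that the number of mice allows is 0.0159. The ratio was lower in IKKβ-/- mice by −0.40 with saline and −0.42 with Ang II (exact permutation p = 0.0794 and 0.0873, adjusted p = 0.175 in both). None of these 4 differences passed after adjustment. The Hk2 to Hk1 ratio differed by 0.16 in IKKβ+/+ and by −0.09 in IKKβ-/- mice with Ang II (exact permutation p = 0.706 and 0.857). Between genotypes it differed by 0.38 with saline and by 0.12 with Ang II (exact permutation p = 0.143 and 0.81, adjusted p = 0.229 and 0.857). None passed. The values had a wide spread in Ang II-treated IKKβ+/+ mice (SD 0.87 against 0.26 with saline).

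**Figure D5:**
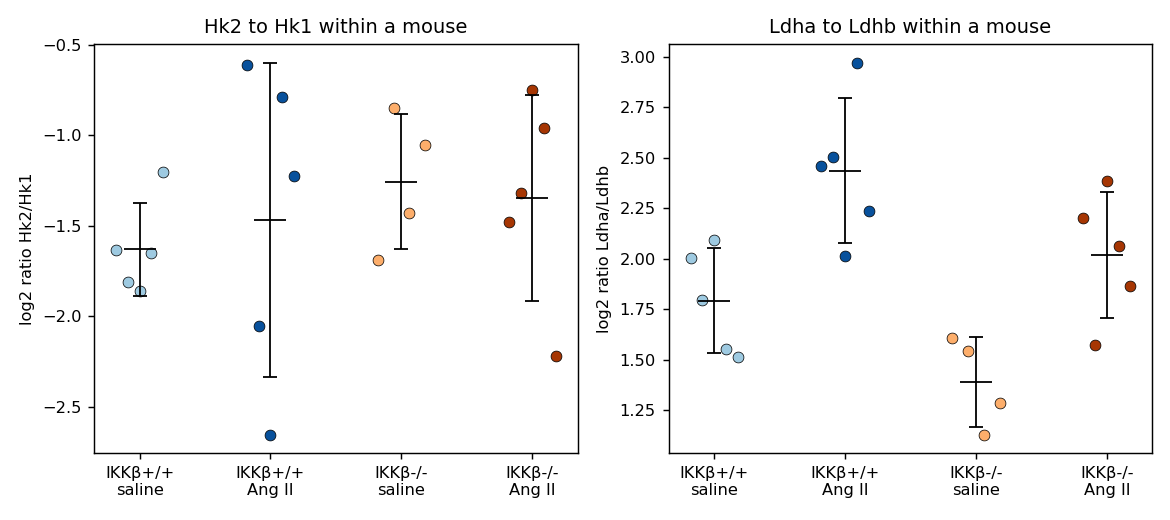
Log2 ratio of Hk2 to Hk1 (left) and of Ldha to Ldhb (right) in each mouse by group, with mean and SD. The Ldha to Ldhb ratio averages 2.44 with Ang II and 1.79 with saline in IKKβ+/+ mice, and 2.02 against 1.39 in IKKβ-/- mice.

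Of 13 other glycolysis enzymes tested, 2 rose with Ang II in IKKβ+/+ mice, Gapdh (log2 fold change 0.65 ± 0.16, limma adjusted p = 0.0281) and Tpi1 (0.35 ± 0.09, limma adjusted p = 0.0405), and none fell. Gapdh, which oxidizes glyceraldehyde 3-phosphate, shares 54.6% of its windows with other transcripts and is uncertain. Tpi1, the triose phosphate isomerase, shares 1.67%. In IKKβ-/- mice 0 of the 13 passed, with 2 at an unadjusted p under 0.05. Pfkl, the liver form of phosphofructokinase, was lower in IKKβ-/- mice averaged over treatments (−0.40 ± 0.10, limma adjusted p = 0.0405).

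Of 9 transporters of glucose and lactate, Slc16a3 (MCT4), which exports lactate, rose in IKKβ+/+ mice (0.79 ± 0.20, limma adjusted p = 0.0303). Its counts were 144, 248.5, 188, 192 and 169 with saline and 361, 419, 271, 418 and 196 with Ang II. Slc2a4 (GLUT4) did not pass (0.32 ± 0.30).

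Of 13 genes of pyruvate entry into mitochondria, Pdk4, which inhibits pyruvate dehydrogenase, rose in IKKβ+/+ mice (1.06 ± 0.28, limma adjusted p = 0.0361). Its hypoxia-responsive relative Pdk1 did not pass (−0.26 ± 0.20, limma adjusted p = 0.5). None of 7 pentose phosphate genes passed in this comparison in limma, and 0 had an unadjusted p under 0.05.

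Among 8 genes of HIF and oxygen sensing, Epas1 (HIF-2α) fell in IKKβ+/+ mice (−0.42 ± 0.14, limma adjusted p = 0.0902), while Hif1a itself had a log2 fold change of 0.05 ± 0.19. Of 15 hypoxia targets outside glycolysis, 2 rose, Ddit4 (0.96 ± 0.27, limma adjusted p = 0.0487) and Higd1a (0.48 ± 0.11, limma adjusted p = 0.0164), and Vegfa did not pass (−0.19 ± 0.21). Of 8 regulators named in textbooks for these genes, Myc rose (1.62 ± 0.46, limma adjusted p = 0.0507). Its counts were 66.6, 93.7, 143.6, 81.7 and 66.2 with saline and 779.7, 116, 117, 281 and 464 with Ang II, the highest being X2350. In IKKβ-/- mice 2 genes of gluconeogenesis and glycogen rose, Pck1 (5.73 ± 1.18) and Pcx (3.08 ± 0.59, limma adjusted p = 0.0144 and 0.00958), together with the white adipocyte markers described above.

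Averaged over genotypes, the related genes that passed with Ang II included Pgam1 (0.30) and again Gapdh (0.41), of which Pgam1, the phosphoglycerate mutase, shares 40.3% of its windows and is uncertain. Pfkfb2, a relative of Pfkfb3, fell (−0.38, limma adjusted p = 0.0387), the 1 gene of 4 in its group that passed. G6pdx, the entry enzyme of the pentose phosphate pathway, rose (0.31, limma adjusted p = 0.0678). Slc16a3 (0.41) and Pdk4 (0.94) passed here as well, in an average that uses the same IKKβ+/+ mice as above. In IKKβ-/- mice Slc16a3 counts were 182, 192, 180 and 210 with saline and 221, 207, 233.5, 138 and 199 with Ang II. Egln3, an oxygen sensor, rose (0.85, limma adjusted p = 0.0656) while Epas1 fell (−0.42), and P4ha1 (0.52), Ddit4 (0.65), Higd1a (0.27) and Myc (0.95) rose. Of the genes of gluconeogenesis and glycogen 4 rose on this average, Pck1 (3.02), Pcx (1.37), Pgm2 (0.36) and Gys1 (0.34). All 6 white adipocyte markers rose in this comparison too. In IKKβ+/+ mice alone 0 of the 13 gluconeogenesis and glycogen genes tested passed, with log2 values from −0.45 to 0.48. Pcx counts there were 1286, 143, 233.5, 444 and 353 with saline and 272, 343, 364, 124 and 488 with Ang II. Of the related genes named in this paragraph, only Pck1 and Pcx passed in limma in IKKβ-/- mice alone.

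Between genotypes with saline, Pck1 (−3.77, limma adjusted p = 0.0928) and Pcx (−2.09, limma adjusted p = 0.0723) were the related genes that passed, both lower in IKKβ-/- mice. In the same comparison all 6 white adipocyte markers tested had negative values (median −2.18), of which 0 passed in limma and 5 had an unadjusted p under 0.05. The sums over the 7 listed were 999 to 18237 in IKKβ+/+ and 1212.5 to 5098 in IKKβ-/- mice. Averaged over treatments, Mpc2, a subunit of the mitochondrial pyruvate carrier, was higher (0.35, limma adjusted p = 0.0656), as was Pck2 (0.32, limma adjusted p = 0.0881), and Trp53 was lower (−0.27, limma adjusted p = 0.0737). With Ang II none of the related genes passed between genotypes in limma. Ldhb had log2 fold changes with Ang II of −0.18 ± 0.13 in IKKβ+/+ and −0.30 ± 0.14 in IKKβ-/- mice and passed in neither.

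The 5 genes outside the 10 whose log2 values followed their mean most closely over the 19 mice were Por (Pearson r = 0.89), Arhgdia (0.89), Tubb4b (0.89), Ltv1 (0.89) and Cers2 (0.89). For Hk2 alone, the 5 closest of all genes tested were Rrs1 (0.80), Lxn (0.79), Slc25a3 (0.79), Slc2a1 (0.75), itself one of the 10, and Shisa4 (0.75). For Ldha they were Ppa1 (0.88), Slc39a1 (0.87), Rnh1 (0.86), Slc25a5 (0.85) and Gmppb (0.85). These are descriptions over mice that share treatment and genotype.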

How the data were processed

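Total RNA of the SRA was prepared as poly(A) libraries by the authors, trimmed with Trimmomatic 0.35, aligned to GRCm38 and counted on Gencode M25 genes with STAR 2.7.1a and normalized with DESeq2 1.30.1, per the labels and methods. The deposited signal is a normalized count, in which the authors scaled every library by one size factor. In each library 100% of values were whole multiples of 1 read within 0.01, and these reads were recovered.

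The filter asked for 10 or more normalized counts in 4 or more mice and left 14845 genes. Log2(normalized count + 1) was fitted over all 19 mice with a mean per group in limma 3.58.1 (R 4.3.3), and the added 1 understates the fold change of low genes. Tests were two-sided, with Benjamini-Hochberg adjustment over all genes tested. Isozyme ratios were compared by exact permutation tests. Nothing in the labels says whether mice were processed in batches, and replicates are mice.

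Alternatives were a pseudocount of 4, no filter, TMM scaling and the quasi-likelihood test (edgeR 4.0.16), DESeq2 1.42.0 on recovered reads, array quality weights, the groups compared only, an adjusted p under 0.05 and each mouse left out. The removal of 2 pairs of mice and 2 covariates were added after seeing the data. Windows of 84 bases were taken from Gencode M21 transcripts. The members, lists and tests were chosen with earlier results of these data known. The named genes are the 10 members, genes of the lists that passed (up to 4 per list and comparison), 6 set genes and the 5 most like the members, Hk2 and Ldha.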

Additional observations from a re-analysis of the deposited data

Results flagged for a closer look

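In 1 of the 40 groups of values of the 10 genes (4 groups of mice each), 1 mouse stood apart from the others by Dixon's test at the 95% level. In Ang II-treated IKKβ+/+ mice the Pfkfb3 count of X2359 was 1186, and the other 4 mice lay between 727 and 843. The gap to the nearest mouse was 0.747 of the range of the group. Chance alone gives such a mouse in about 1 of 20 groups.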

How the results depend on the processing

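The number of the 10 genes that passed moved beyond 1.5 times the reported count in DESeq2 (5 for Ang II in IKKβ+/+ mice, 2 for genotype with Ang II), in the fit without X2350 and X2358 (0 for Ang II in IKKβ+/+ mice), in the smooth muscle covariate (0 for Ang II in IKKβ+/+ mice, 1 for genotype with saline), in the mitochondrial covariate (7 for Ang II in IKKβ+/+ mice, 5 for Ang II averaged over genotypes, 0 for genotype averaged over treatments), in the fit without X2385 and X2406 (0 for genotype averaged over treatments). With each mouse left out in turn, the number ran from 1 to 4 for Ang II in IKKβ+/+ mice, from 0 to 1 for genotype with saline, from 0 to 2 for genotype with Ang II, from 2 to 5 for Ang II averaged over genotypes, from 1 to 2 for genotype averaged over treatments. The log2 ratios ran, over the same removals, from −0.0498 to 0.46 for Hk2/Hk1 with Ang II in IKKβ+/+ mice, from −0.24 to 0.13 for Hk2/Hk1 with Ang II in IKKβ-/- mice, from −0.18 to 0.34 for Hk2/Hk1 with genotype with Ang II, from 0.54 to 0.74 for Ldha/Ldhb with Ang II in IKKβ-/- mice, from −0.52 to −0.28 for Ldha/Ldhb with genotype with Ang II. Some fold changes of genes that did not pass turned sign. With the fit without X2350 and X2358 these log2 values were, for Ang II in IKKβ+/+ mice (Hk2 −0.19), for genotype with Ang II (Hk2 0.13), for the difference between the Ang II effects (Hk2 0.0652, Ldha 0.005701), for Ang II averaged over genotypes (Hk2 −0.16), for genotype averaged over treatments (Hk2 0.10, Pfkp 0.0136, Aldoa 0.00596). With the smooth muscle covariate these log2 values were, for Ang II in IKKβ+/+ mice (Hk1 −0.0813), for Ang II in IKKβ-/- mice (Hk1 0.04799, Pfkfb3 −0.0186), for genotype with saline (Hk2 −0.0678, Pfkp −0.02901, Eno1 −0.0727, Pkm −0.11), for genotype with Ang II (Pfkp 0.02099, Pfkfb3 −0.01502), for the difference between the Ang II effects (Slc2a1 0.12, Hk1 0.13, Pfkp 0.05), for Ang II averaged over genotypes (Hk1 −0.0167). With array quality weights these log2 values were, for Ang II in IKKβ-/- mice (Pfkfb3 −0.0165, Pgk1 −0.13), for genotype with saline (Hk2 −0.0206, Eno1 −0.0312, Pkm −0.00275), for genotype averaged over treatments (Pfkp 0.0186). With the fit without X2385 and X2406 these log2 values were, for Ang II in IKKβ-/- mice (Slc2a1 −0.0845, Pgk1 −0.11), for genotype with saline (Slc2a1 0.13), for the difference between the Ang II effects (Pfkfb3 0.0318), for genotype averaged over treatments (Pfkp 0.0374). With the mitochondrial covariate these log2 values were, for Ang II in IKKβ-/- mice (Hk1 0.0104, Pgk1 −0.008997), for genotype with saline (Slc2a1 0.39), for genotype with Ang II (Pfkp 0.0403), for genotype averaged over treatments (Slc2a1 0.0934, Hk2 0.14, Pfkp 0.15, Aldoa 0.05002, Pgk1 −0.0507). With TMM scaling these log2 values were, for genotype with saline (Pkm −0.00703), for the difference between the Ang II effects (Pfkfb3 0.00908). With the edgeR test these log2 values were, for the difference between the Ang II effects (Pfkfb3 0.0511). With DESeq2 these log2 values were, for the difference between the Ang II effects (Pfkfb3 0.0409). With each mouse left out, ranges that cross 0 were found for Ang II in IKKβ+/+ mice Pfkfb3 −0.0337 to 0.18, for Ang II in IKKβ-/- mice Pgk1 −0.0916 to 0.13, Hk1 −0.11 to 0.10, Pfkfb3 −0.11 to 0.19, Hk2 −0.27 to 0.07802, Slc2a1 −0.10 to 0.33, Pkm −0.0294 to 0.12, Aldoa −0.0754 to 0.0224, for genotype with saline Pkm −0.0545 to 0.0952, Hk2 −0.13 to 0.21, Slc2a1 −0.31 to 0.13, Pfkp −0.0638 to 0.14, for the difference between the Ang II effects Pfkfb3 −0.19 to 0.11, for Ang II averaged over genotypes Pfkfb3 −0.0138 to 0.14, for genotype averaged over treatments Pfkp −0.0714 to 0.0302, Pgk1 −0.0138 to 0.11. All settings other than these gave a number of genes within 1.5 times that reported. The causes were not tested. The groups hold 4 or 5 mice, so small differences may have gone undetected. The IKKβ+/+ mice were littermates, but the labels give each mouse a number of its own and no litter. A paired analysis, or one by litter, was therefore not possible.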
